A study of Mus musculus with 24 samples.

Results

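Fibroblasts carrying the 5-factor cardiac reprogramming cocktail AGHMT were compared between day 2 and day 7 after retroviral transduction, rather than with untreated cells. Each day has its own libraries, and the labels state no pairing between the days. The 6 libraries compared, 3 at each day, were chosen by the cocktail and day in their labels out of 24 libraries in the series. Genes of the raw count table were tested where a filter on low counts kept them, 17576 of 47967. The starting cells, mouse embryonic fibroblasts (MEFs), are cultured connective-tissue cells, here of C57BL/6 embryos taken at embryonic days 13.5 to 14.5. They were exposed to the viruses in 2 rounds and then kept in an induction medium with serum, insulin and other supplements. The letters AGHMT usually stand for Akt1, Gata4, Hand2, Mef2c and Tbx5. Other pairs of groups serve as a background here, each with 3 libraries at day 2 and 3 at day 7: mock-treated MEFs, for which the labels do not say whether an empty virus was used, and MEFs given GHMT, the same cocktail without Akt1. The labels name no promoter for the viruses and no sorting step, so cells with and without the factors are measured together in each library. In such bulk RNA, a change in the number of cells of a type and a change in RNA per cell cannot be told apart.

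Direct reprogramming forces fibroblasts to express transcription factors of the embryonic heart, without passing through a stem cell. Gata4, Hand2, Mef2c and Tbx5 bind together at regulatory DNA of genes for the sarcomere, the contractile unit of muscle, and for calcium and ion handling. Akt1 is a kinase of insulin and growth factor signalling that favours growth, glucose use and survival. Fibroblasts themselves are defined by the collagens and elastic fibre proteins they secrete, and cells that sense viral nucleic acid switch on interferon-stimulated genes.

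The 6 AGHMT libraries held 29345957 to 34722910 counts, within the 29345957 to 37495178 of the whole series. Levels are given as CPM, a gene's counts per 1000000 counts of the library after TMM scaling, and changes as the log2 ratio of day 7 to day 2 from edgeR's quasi-likelihood test. A gene was called where its Benjamini-Hochberg adjusted p over all 17576 genes tested was under 0.05, and "rose" or "fell" is used only of called genes. The labels do not state whether a group's 3 libraries are independent cultures. The p-values therefore reflect variation among libraries within groups alone, and that variation may be purely technical. Its size was estimated over all 24 libraries of the 8 groups, not from the compared libraries only.

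One day 2 library, replicate 3, stood apart from its mates. Over all genes its chi-square per degree of freedom against replicates 1 and 2 was 41.7 and 38.9, whereas every other pair of replicates in the series lay between 1.49 and 10.5. Its deviation followed transcript length. Genes with under 1 kb of merged exon were 0.43 (median log2) above the other 2 libraries, and genes of 8 kb or longer were 0.23 below. The same medians lay between -0.06 and 0.03 in the 3 day 7 libraries. Leaving this library out moved the median day change of genes under 1 kb from 0.08 to 0.20, and that of genes of 8 kb or longer from 0.02 to -0.05. Of 9576 genes called with it and tested both ways, 8626 (90.1%) were called in the same direction without it, 2358 of 2468 among those with a 2-fold change, and 0 in the opposite direction. The long titin gene Ttn shows the pull on a single gene, with 409, 362 and 149 CPM in day 2 replicates 1, 2 and 3. List counts of the AGHMT day change that moved by over 1.5 times without this library are given below both ways. What sets the library apart was not tested.

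**Figure D1:**
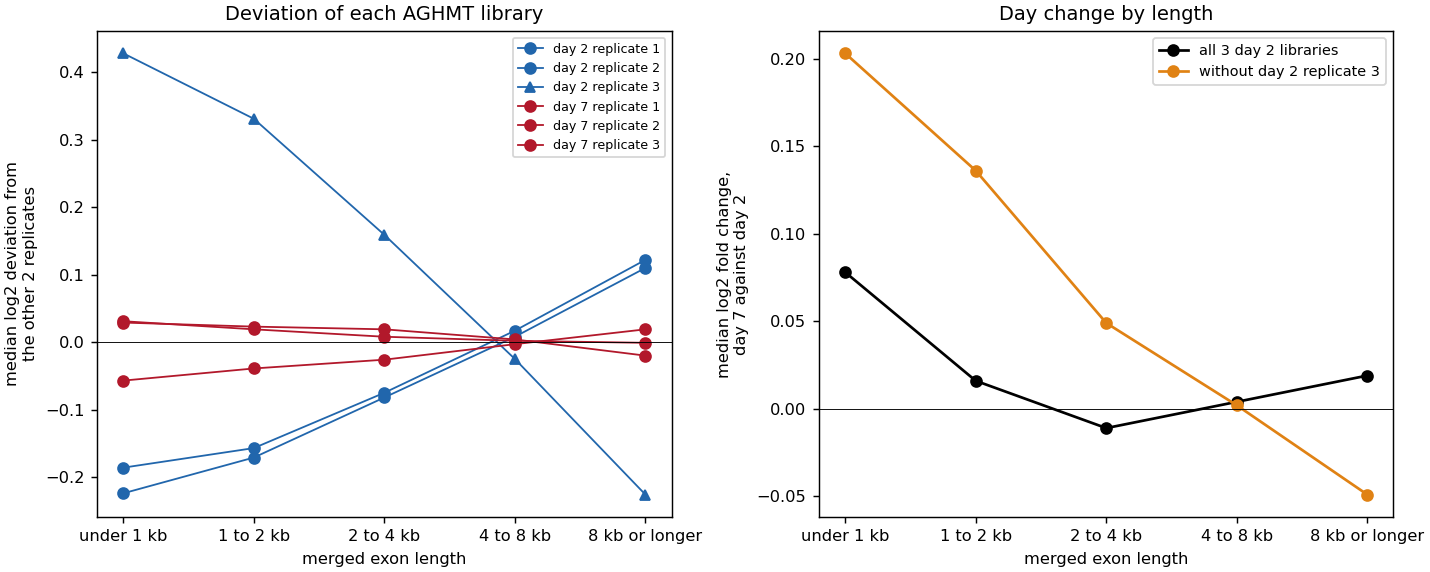
Left: median log2 deviation of each AGHMT library from the other 2 libraries of its day, by merged exon length (day 2 blue, day 7 red). Right: median log2 change from day 2 to day 7 by length with all libraries (black) and without day 2 replicate 3 (orange). Day 2 replicate 3 (triangles) runs from 0.43 above its mates for genes under 1 kb to 0.23 below for genes of 8 kb or longer, and the day 7 libraries stay close to 0.

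Between the days 9577 of 17576 genes were called (54.5%), 5192 higher at day 7 (29.5%) and 4385 lower (24.9%). At least a 2-fold change was reached by 1647 of those that rose (9.37%) and 822 of those that fell (4.68%). With library totals in place of TMM scaling the split turned to 4223 higher and 5643 lower. Without day 2 replicate 3 it was 5554 (31.0%) and 4534 (25.3%) of 17929 genes tested, 56.3% called in all. The replicates of the 2 days did not overlap for 9769 genes (55.6%). The median change over all genes was 0.02. Every list below is therefore read against a background in which more than 1 gene in 2 was called.

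Transcripts of the factors themselves were lower at day 7, apart from Hand2 and Akt1. Reads of a viral copy that align to the mouse gene are counted together with those of the cell's own gene. How much of each factor's viral RNA is counted in this way was not tested. Gata4, a zinc-finger factor, measured 1115, 1106 and 1177 CPM at day 2 and 636, 636 and 627 CPM at day 7, a change of -0.84 ± 0.05 (SE) with an adjusted p of 1.54e-13. Mef2c, a MADS-box factor, went from 2937, 2887 and 2632 to 1659, 1649 and 1619 CPM (-0.78 ± 0.05). Tbx5, a T-box factor, went from 2787, 2742 and 2382 to 1743, 1747 and 1700 CPM (-0.61 ± 0.05). For these 3 genes all day 2 libraries were above all day 7 libraries. Hand2, a basic helix-loop-helix factor, was slightly higher, with 984, 962 and 1099 CPM against 1130, 1133 and 1113 CPM (0.15 ± 0.05, adjusted p = 0.00778), and this call was lost with library totals (adjusted p = 0.217), with only the compared libraries fitted (0.17) and without day 2 replicate 2 (0.0607). Akt1 overlapped between the days at 450 to 485 and 445 to 459 CPM (-0.05, adjusted p = 0.279), not far above the 387 CPM of mock cells at day 2. The mock means of the other factors were 1.66 to 13.6 CPM at day 2, and Mef2c reached 33.1 CPM in mock at day 7. At day 7 the cultures therefore still held Gata4, Mef2c, Tbx5 and Hand2 transcripts far above mock.

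**Figure D2:**
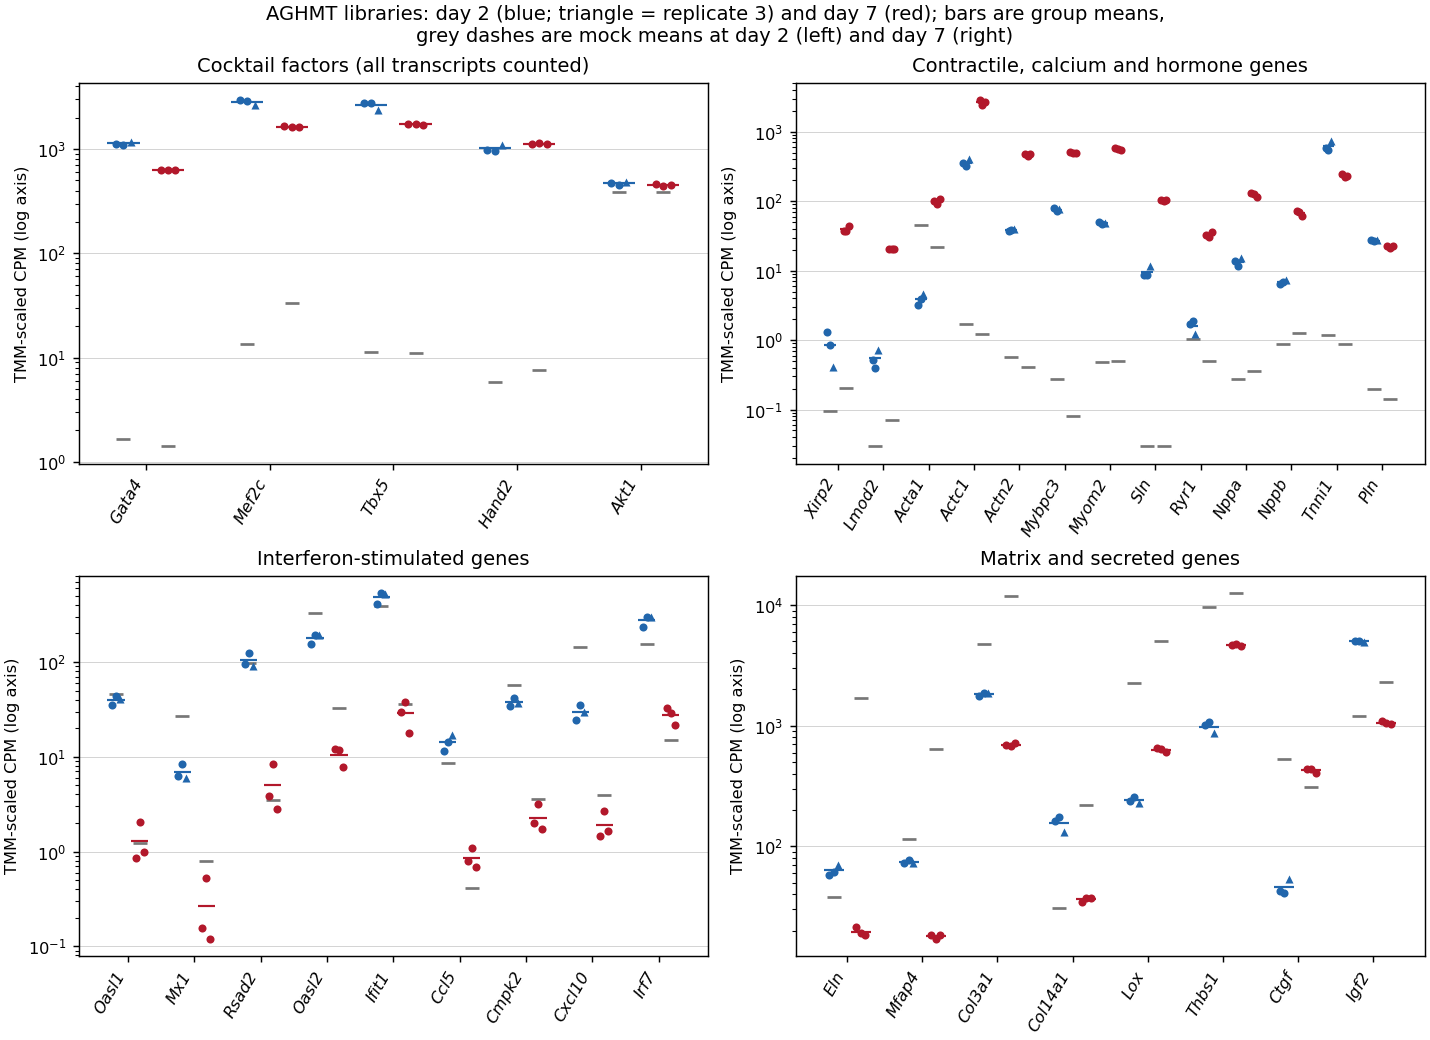
TMM-scaled CPM on a log axis for named genes in each AGHMT library (blue day 2, triangle for replicate 3; red day 7), with group means as coloured bars and mock means as grey dashes (day 2 left, day 7 right; means of 0 not drawn). Contractile genes such as Lmod2, Actc1 and Myom2 sit higher in every day 7 library, interferon-stimulated genes and most matrix genes shown sit lower, and Lox, Thbs1 and Ctgf sit higher.

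The contractile machinery rose almost as a whole. Of 14 tested genes of the thick filament and M-band 11 rose and 0 fell, all 11 by at least 2-fold, with a list median of 1.43. Of 13 thin filament genes 12 rose and 1 fell (median 1.45), and of 19 genes of the Z-disc and costamere 17 rose and 0 fell (median 1.46). In mock cells the medians of the same lists were -0.64, -0.04 and 0.02. Without day 2 replicate 3 the AGHMT counts were 11, 12 and 18 higher with medians of 1.36, 1.18 and 1.55. The summed level of the thick filament list was 3073 to 3286 CPM at day 2 and 10038 to 10526 CPM at day 7.

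In the thick filament, Myom2, which crosslinks myosin at the M-band, measured 50.7, 47.1 and 48.9 CPM at day 2 and 577, 556 and 541 CPM at day 7 (3.51 ± 0.05, adjusted p = 7.88e-26). Mybpc3, cardiac myosin-binding protein C, went from 79.5, 71.2 and 76.2 to 508, 499 and 501 CPM (2.73 ± 0.06). Myh6, the fast myosin heavy chain of the atria and the adult mouse heart, went from 1480, 1396 and 1268 to 4784, 4432 and 4614 CPM, 3.34 times the day 2 level (adjusted p = 6.21e-15). None of these 3 overlapped between the days, and their mock means were at most 1.38 CPM. Mybphl, a relative of myosin-binding protein H, rose by 2.49. The 3 uncalled members were Myh7b (-0.40) and the ventricular light chains Myl2 (-0.84) and Myl3 (-0.76), all 3 at no more than 0.443 CPM in any AGHMT library.

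In the thin filament, Lmod2, leiomodin 2, which lengthens actin filaments, measured 0.522, 0.394 and 0.721 CPM at day 2 and 20.8, 20.6 and 20.5 CPM at day 7 (5.21 ± 0.11, adjusted p = 1.21e-21). Actc1, cardiac actin, went from 349, 317 and 399 to 2826, 2458 and 2662 CPM, a 7.46-fold rise. Acta1, skeletal actin, went from 3.22, 3.85 and 4.68 to 101, 92.5 and 108 CPM, a 25.5-fold rise, while its mock mean fell from 45.9 to 22.0 CPM. Nebl, the cardiac nebulin relative, rose by 1.99. Tnni1, the slow skeletal troponin I of the fetal heart, was the 1 member that fell, from 578, 545 and 732 to 244, 220 and 232 CPM (-1.42 ± 0.08, adjusted p = 1.65e-13).

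At the Z-disc, Xirp2, an actin-binding Xin repeat protein, had the largest rise of the list, from 1.30, 0.855 and 0.416 CPM to 37.3, 36.7 and 43.9 CPM (5.52 ± 0.19, adjusted p = 6.82e-18). Its day 2 value was lowest in replicate 3, and without that library the change was 5.17. Actn2, sarcomeric alpha-actinin, went from 37.6, 38.3 and 40.3 to 471, 453 and 474 CPM, a 12.03-fold rise. The actinin partners Pdlim3 and Pdlim5 rose by 3.18 and 1.58, and Synpo2l, a cardiac synaptopodin relative, by 2.47. Ankrd1, a stretch-responsive repressor at the Z-disc named here after its values were seen, went from 759, 723 and 922 to 3367, 3473 and 3294 CPM. The 2 uncalled members were Csrp3, the muscle LIM protein (0.02, adjusted p = 0.869), and Myoz1 (0.65).

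The 250 bases upstream of the start site are shown for 2 of the genes with the largest rise, because MEF2 factors, serum response factor and GATA4 act at muscle promoters and the 2 genes differ in what the search found. The sequences are RefSeq's on GRCm38.p6, both from the plus strand. Xirp2 lies at chr2:67446002-67526614 and Lmod2 at chr6:24597762-24605414. Capitals mark a match to any of the motifs searched on both strands: the GATA motif AGATAA, the T-box motif with letters AGGTGT, the E-box motif with letters CAGATG, and the motifs known as MEF2 and CArG box. Matches do not overlap each other in the sequences shown.
Xirp2, chr2:67445752-67446001: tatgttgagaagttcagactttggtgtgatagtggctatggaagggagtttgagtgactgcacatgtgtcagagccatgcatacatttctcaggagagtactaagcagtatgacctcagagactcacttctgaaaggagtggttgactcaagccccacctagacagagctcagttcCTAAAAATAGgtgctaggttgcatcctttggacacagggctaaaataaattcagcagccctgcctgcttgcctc
Lmod2, chr6:24597521-24597770: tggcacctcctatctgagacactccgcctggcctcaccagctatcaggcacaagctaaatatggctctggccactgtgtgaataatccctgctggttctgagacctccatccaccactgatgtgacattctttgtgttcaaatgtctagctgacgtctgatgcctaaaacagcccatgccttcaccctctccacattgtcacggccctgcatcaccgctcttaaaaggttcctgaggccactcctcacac
The run in Xirp2 is a MEF2 match 74 to 65 bases before the start site, and in Lmod2 no letters matched. Tnfsf18 and Prr32, the other 2 of the 4 highest genes with a listed promoter, held no match either. Across the 12014 tested genes with a listed promoter 2.26% held the MEF2 motif. The share was 5.57% of 1059 genes that rose at least 2-fold, 1.82% of 495 that fell at least 2-fold, and 6 of 37 (16.2%) in the 3 sarcomere lists. The CArG box, the site of serum response factor, was held by 1.45% of all, 3.02% of those that rose, 1.41% of those that fell and 8 of the 37 (21.6%). AGATAA was held by 7.47%, 11.2%, 9.09% and 27.0% of the same 4 sets, AGGTGT by 11.8%, 15.7%, 12.1% and 13.5%, and CAGATG by 12.4%, 15.7%, 16.4% and 10.8%. These are matches of letters and do not show binding.

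Genes of calcium release and uptake followed, by smaller steps. Of 18 tested 15 rose and 1 fell, 6 of them at least 2-fold, with a median of 0.73 against -0.10 in mock. Sln, sarcolipin, a small inhibitor of the calcium pump found mainly in atria, went from 8.64, 8.68 and 11.7 to 105, 101 and 104 CPM (3.41 ± 0.10, adjusted p = 2.28e-19). Trdn, triadin of the calcium release complex, went from 40.8, 37.9 and 38.6 to 159, 156 and 153 CPM (2.00). Jph2, which holds the reticulum against the surface membrane, rose by 0.77 and the kinase gene Camk2d by 0.70. Ryr2, the cardiac release channel and a very long transcript, measured 542, 529 and 307 CPM at day 2 and 1010, 1013 and 1050 CPM at day 7. Its change of 1.16 became 0.94 without day 2 replicate 3, so it passed 2-fold only with that library. Pln, phospholamban, the main pump inhibitor of the ventricle, fell by a little, from 27.4, 26.7 and 27.4 to 22.6, 21.3 and 22.4 CPM (-0.30 ± 0.07, adjusted p = 0.00106).

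Among 25 tested ion channel and pacemaker genes 16 rose and 3 fell, 8 and 1 of these at least 2-fold. The list median was 0.53, close to the 0.48 of mock cells. Popdc2, a cyclic AMP-binding protein of the heart rhythm, went from 35.1, 32.3 and 38.6 to 183, 177 and 180 CPM (2.35), and Kcnj5, an inward rectifier subunit of the atrium, from 33.3, 33.4 and 29.1 to 164, 161 and 172 CPM (2.38). Cacnb2, the auxiliary subunit of the cardiac calcium channel, rose by 2.41, and Popdc3 by 1.75. Among the 3 that fell were Cacna1d, the pacemaker calcium channel, from 11.8, 10.98 and 6.40 to 3.81, 3.46 and 2.59 CPM (-1.56), and Abcc9, a potassium channel regulator (-0.60). Hcn4, the pacemaker current channel, named here after its values were seen, was not called at 1030, 994 and 630 CPM against 789, 770 and 780 CPM (-0.18, adjusted p = 0.217). Without day 2 replicate 3, its lowest day 2 library, it was called lower (-0.38, adjusted p = 0.000107), and the list had 15 higher and 5 lower.

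Natriuretic peptides, hormones of stretched or fetal heart muscle, rose steeply. Nppa went from 13.6, 11.7 and 15.0 to 130.3, 129 and 113 CPM (3.21 ± 0.10, adjusted p = 1.36e-18), and Nppb from 6.35, 6.97 and 7.23 to 73.1, 70.8 and 61.2 CPM (3.32 ± 0.10). Chga, chromogranin A, rose by 2.42 at up to 2.32 CPM, and Pam, which amidates peptide hormones, by 0.47. The receptor gene Npr1 fell from 3.30, 3.42 and 2.77 to 0.755, 1.01 and 0.714 CPM (-1.93), and the processing enzyme gene Corin fell by 0.29. In all 5 of 9 tested members rose and 3 fell. At the intercalated disc, where heart cells join, 9 of 12 tested genes rose and 3 fell (median 0.81, mock 0.16). Pkp2, a desmosome plaque protein, went from 55.4, 60.1 and 60.3 to 145, 141 and 137 CPM (1.27). Ctnna3, an alpha-catenin of the heart, rose by 1.76, the atrial connexin Gja5 by 1.04 and plakoglobin, Jup, by 0.87. Dsc2, a desmosomal cadherin, fell by 0.79 and connexin 45, Gjc1, by 0.55.

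Isoform pairs, compared per kb of merged exon, changed in different ways. Of the 2 troponin I genes, the adult cardiac form Tnni3 made up 43.9, 43.9 and 45.1% at day 2 and 77.4, 78.4 and 77.0% at day 7. Tnni3 itself rose by 0.70 (adjusted p = 4.57e-08) while Tnni1 fell. The pump inhibitors turned the other way: Pln made up 60.2, 59.5 and 52.9% of Sln plus Pln at day 2 and 9.31, 9.14 and 9.34% at day 7. Myh7, the slow heavy chain, stayed a small part of Myh6 plus Myh7, with 0.266% at day 2 and 0.176% at day 7, though its own level rose by 1.14. Actc1 made up 98.9% of the 2 sarcomeric actins and then 96.2%, and Ryr2 99.5% of Ryr1 plus Ryr2 and then 95.9%. Nppb held 36.1% and 37.9% of the 2 natriuretic peptides, with overlapping libraries. The light chain Myl4 rose by 1.74 and Myl7 by 1.02, while the ventricular Myl3 and Myl2 made up no more than 0.093% of their pairs in any library. Atp2a2, the cardiac pump, rose by 0.67 and left its skeletal counterpart Atp2a1 at 0.0613 and 0.0359 CPM per kb. Casq2, the cardiac calsequestrin, rose by 0.48 and kept 99.9%. Pairwise shares rest on levels per kb and were not tested as such.

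**Figure D3:**
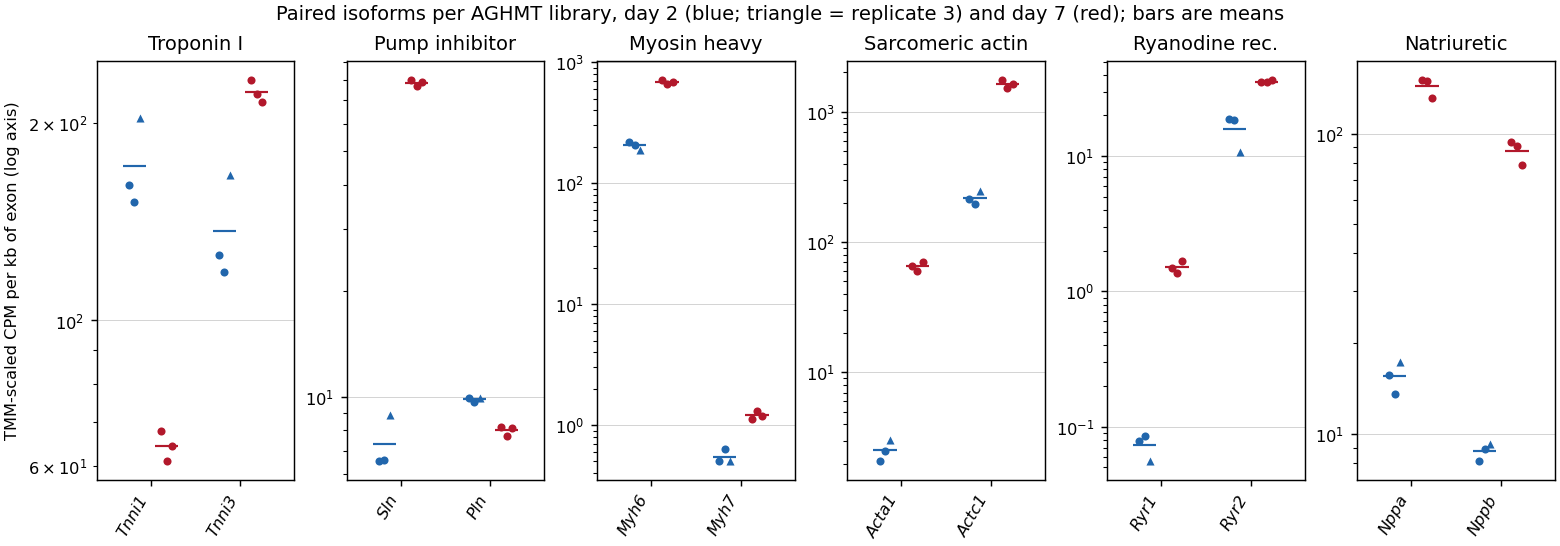
TMM-scaled CPM per kb of merged exon, on log axes with a separate scale per panel, for 6 isoform pairs in each AGHMT library (blue day 2, triangle for replicate 3; red day 7; bars are means). Tnni1 and Tnni3 exchange rank between the days, Sln overtakes Pln, and Myh6, Actc1 and Ryr2 stay far above their partners.

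Transcription regulators of the heart outside the cocktail did not move as one. Of 32 tested 11 rose and 14 fell (median -0.13). Tbx20, a T-box factor of heart muscle, went from 117, 120.2 and 103 to 222, 234 and 240.2 CPM (1.03), and Smyd1, a muscle methyltransferase, from 72.6, 73.1 and 73.1 to 138, 145 and 149 CPM (0.98). Hey2, a Notch-responsive repressor of compact ventricular muscle, fell from 23.1, 22.8 and 23.6 to 4.85, 4.60 and 5.26 CPM (-2.24 ± 0.08, adjusted p = 5.01e-17), and Hey1 fell by 1.57. Nkx2-5, a core factor of heart cells named here after its values were seen, had too few counts to be tested, at no more than 0.116 CPM in any of the 6 libraries. Of 13 tested Notch pathway genes, which include Hey1 and Hey2, 2 rose and 8 fell. Lfng, which modifies Notch receptors, and the receptor gene Notch4 rose by 1.75 and 1.98, both from under 1 CPM.

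Genes of skeletal and smooth muscle rose together with the cardiac ones. Of 22 skeletal muscle genes 15 were tested, and 11 rose and 0 fell (median 1.92, mock 0.53). Their day change was called higher than that of mock for 6 and lower for 0. That is 40.0% of the list, against 50.9% of all genes. Myl1, the fast light chain, went from 72.1, 69.1 and 90.8 to 701, 772 and 748 CPM (3.26). Tnnt3 and Tnnt1, fast and slow skeletal troponin T, rose by 1.92 and 1.96. Ryr1, the skeletal release channel, went from 1.71, 1.87 and 1.22 to 32.4, 30.0 and 36.5 CPM, a 20.7-fold rise (adjusted p = 4.59e-20). The myogenic factors Myod1, Myf5 and Myf6 were among the genes with too few counts to test, and Myog was tested and not called (0.69). Of 18 smooth muscle and myofibroblast genes 15 rose and 1 fell, 9 at least 2-fold (median 0.98, mock -0.15), and without day 2 replicate 3 the counts were 15 and 2. Tagln, transgelin, went from 274, 259 and 340 to 1101, 1092 and 1005 CPM (1.87), smooth muscle myosin Myh11 from 87.0, 88.0 and 71.2 to 440, 459 and 400.4 CPM (2.40), and calponin, Cnn1, rose by 1.89. Rgs5, a pericyte regulator, fell by 0.55. Despite the rise, the mean of Tagln at day 7 stayed below the 1826 and 1315 CPM of mock at the 2 days.

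More matrix genes of the fibroblast fell than rose, where more rose than fell in mock. Of 26 fibrillar collagen and collagen-modifying genes 9 rose and 15 fell (median -0.34), where mock had 17 higher and 6 lower (median 0.38). Col3a1, a main fibrillar chain, went from 1779, 1854 and 1860 to 696, 675 and 716 CPM (-1.40 ± 0.06, adjusted p = 2.14e-15) while its mock mean went from 4755 to 12011 CPM. Col1a2 fell by 1.24 and Col14a1, a fibril-associated chain, from 162, 174 and 132 to 34.3, 37.2 and 37.6 CPM (-2.10). Against this direction Lox, lysyl oxidase, which crosslinks collagen and elastin, rose from 240, 259 and 229 to 648, 647 and 602 CPM (1.38), and Plod2, a collagen lysyl hydroxylase, by 0.89. Of 24 elastic fibre and matrix glycoprotein genes 4 rose and 16 fell (median -0.41, mock 0.85). Their summed level went the other way, from 16135 to 20189 CPM at day 2, lowest in replicate 3, to between 21102 and 21383 CPM at day 7. That of the collagen list was 30340 to 33506 CPM and then 23602 to 24051 CPM. Eln, elastin, went from 58.3, 61.7 and 69.5 to 21.2, 19.0 and 18.5 CPM, while mock went from 37.9 to 1688 CPM. Microfibril genes Mfap4 and Mfap2 fell by 2.04 and 1.78. Thbs1, thrombospondin 1, rose from 1006, 1069 and 875 to 4709, 4745 and 4627 CPM (2.25), and Efemp1, a fibulin, by 1.28.

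General fibroblast identity genes were mixed, with 8 of 24 higher and 9 lower (median -0.16), where mock had 14 higher and 7 lower (median 0.47). Their day change was called higher than that of mock for 7 and lower for 14. Their summed level went the other way from the list median, from 3425 to 3817 CPM at day 2 to between 5054 and 5157 CPM at day 7. Thy1, a surface glycoprotein of fibroblasts, went from 160, 158 and 178 to 313, 300.2 and 305 CPM (0.89), and S100a4 rose by 1.61. Osr1, an embryonic connective-tissue factor, fell by 1.53 and Tcf4 by 0.74. The labelled cell type was visible throughout, since Col1a2 alone stood at 2083 CPM or more in every AGHMT library. Of 19 matrix proteases and inhibitors 13 rose and 5 fell (median 0.55), where mock had 12 higher and 5 lower (median 0.36). Their day change was called higher than that of mock for 6 and lower for 8. The protease gene Adamts1 rose by 1.84, and by 1.63 in mock. Plat, a secreted serine protease, fell by 1.73 and the membrane protease Mmp14 by 1.51.

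Targets of TGF-beta and of the mechanical regulator YAP rose in most cases. Of 16 tested genes in that list 13 rose and 2 fell (median 0.72, mock -0.22). Ctgf, a YAP and TGF-beta target, went from 43.0, 40.8 and 53.4 to 440.4, 434 and 408 CPM (3.22), Cyr61 from 95.1, 92.0 and 109 to 370.4, 366 and 353 CPM (1.88), and Amotl2, a YAP feedback gene, rose by 1.83. The ligand gene Tgfb3 went from 125, 120 and 123 to 587, 608 and 538 CPM (2.24) and Tgfb1 fell from 34.8, 33.2 and 34.6 to 24.8, 25.3 and 24.98 CPM (-0.45). Ltbp2, a latent TGF-beta binding protein, was called lower (-0.32) with overlapping replicates, and the call was lost without day 2 replicate 1.

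Proliferation genes fell. Of 29 genes of mitosis 28 fell and 1 rose (median -0.65), and of 29 genes of DNA replication 24 fell and 0 rose (median -0.43). Without day 2 replicate 3 the replication count was 19 lower and 1 higher. Ccna2, cyclin A2, went from 24.7, 25.3 and 26.5 to 11.9, 11.4 and 12.9 CPM (-1.08), Ccnb1 fell by 1.00, Kif23 by 0.98 and the helicase subunit Mcm6 by 1.09. Cenpa, the centromeric histone, went against the rest, with 96.3, 89.8 and 106 CPM and then 160, 152 and 152 CPM (0.67 ± 0.05, adjusted p = 3.99e-11). In mock the mitosis median was -0.50 with 26 lower and 0 higher. The difference of day changes between AGHMT and mock was called for 9 mitosis genes lower and 2 higher. That is 37.9% of the list, against 50.9% of all genes. The replication list had 16 lower and 2 higher in mock (median -0.19). Its difference from mock was called lower for 12 genes and higher for 3 (51.7%). Of 22 CDK inhibitor and p53 target genes 10 rose and 8 fell. Cdkn1c, an imprinted inhibitor, fell from 592, 613 and 778 to 181, 190 and 189 CPM (-1.82) while mock rose by 2.89. Cdkn2a rose from 8.72, 9.37 and 11.2 to 29.5, 33.0 and 29.4 CPM (1.65). Its mock mean rose too, from 33.3 to 86.7 CPM (1.38), and the difference was not called (0.26, adjusted p = 0.065).

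By list median, energy genes changed by small steps except those of creatine and oxygen storage, though single genes of the other lists changed by more. Of 26 glycolysis and glycogen genes 23 rose and 1 fell, with a median of only 0.32, where mock had 5 higher and 19 lower (median -0.81). Hk2, hexokinase 2, went from 52.4, 55.6 and 52.99 to 155, 162 and 165 CPM (1.58), the lactate carrier Slc16a1 rose by 1.58, muscle glycogen phosphorylase Pygm by 1.43 and Pfkp by 0.96. The insulin-responsive glucose transporter Slc2a4 fell by 0.55 from at most 2.43 CPM. Of 9 tested creatine, myoglobin and nucleotide genes 8 rose and 1 fell (median 1.39). Mb, myoglobin, went from 267, 251.2 and 356 to 794, 763 and 736 CPM (1.39), Ckb, brain-type creatine kinase, from 194, 174 and 240 to 571, 544 and 510 CPM (1.42), and Gamt, which makes creatine, fell by 1.02. Muscle creatine kinase, Ckm, was too low to test. Of 27 tested fatty acid genes 11 rose and 4 fell (median 0.10), with 7 lower under library totals and 2 lower without day 7 replicate 3. Pdk4, which limits pyruvate oxidation, rose by 1.51, and Cpt1a, the liver-type gate of fatty acid oxidation, fell by 0.99.

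The counts for oxidative phosphorylation and ribosomal protein genes, which are short, depended on the libraries and scaling used. With all libraries 21 of 50 nuclear respiratory genes rose and 1 fell (median 0.11), and without day 2 replicate 3 the counts were 42 higher and 1 lower (median 0.24). Library totals gave 13 higher and 3 lower, and fitting only the compared libraries gave 9 higher. The heart and muscle forms Cox6a2 and Cox7a1 rose by 1.53 and 1.13, and Cycs, cytochrome c, by 0.61. In mock Cox6a2 rose by 1.74, and the difference was not called (-0.20, adjusted p = 0.496). The differences of Cox7a1 and Cycs from mock were called higher (1.93 and 0.79). Cox5a fell, from 112, 106 and 148 to 91.4, 88.4 and 87.5 CPM. Of 43 cytosolic ribosomal protein genes 34 fell and 0 rose (median -0.25), and without that library 15 fell and 2 rose (median -0.08). Fitting only the compared libraries gave 14 lower. Rps4x measured 345, 347 and 468 CPM at day 2 and 260, 260 and 264 CPM at day 7. The median merged exon lengths of the 2 lists were 1870 and 1830 bases. Sterol and fatty acid synthesis had 9 higher and 9 lower of 29, and 14 and 11 without the library. Its transcription factor gene Srebf2 fell by 0.79, and Scd1, a fatty acid desaturase, by 1.04. Of 29 ATF4 and amino acid genes 14 rose and 5 fell, with Nupr1 up by 1.57, Chac1 by 1.04, Mthfd2 by 0.76 and Slc38a2 by 0.77, and Slc7a5 down by 0.43.

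Genes of growth factor signalling moved in both directions. Of 26 ERK feedback and immediate early genes 20 rose and 1 fell (median 0.63), where mock had 4 higher and 19 lower (median -0.44). Dusp6 and Dusp4, phosphatases that dampen ERK, rose by 1.84 and 1.498, and Ereg, an EGF receptor ligand, from 6.17, 5.13 and 5.85 to 36.4, 40.2 and 35.8 CPM (2.71). Fos fell by 0.75. Of 28 insulin, IGF and FoxO genes 10 rose and 10 fell. Igf2, the fetal growth factor, went from 5061, 5088 and 4967 to 1090, 1047 and 1033 CPM (-2.25 ± 0.07, adjusted p = 1.38e-18), and mock rose from 1209 to 2308 CPM. Igfbp4, a binding protein, fell by 1.22. The muscle ubiquitin ligases that FoxO factors induce, Trim63 and Fbxo32, rose by 1.83 and 1.09. Among 28 Wnt genes 8 rose and 12 fell, with the secreted Wnt inhibitor Wif1 up from 8.06, 6.34 and 8.45 to 89.0, 86.7 and 88.3 CPM (3.52) and Dkk3 and Fzd2 down by 0.99 and 0.79. Of 16 receptor genes for angiotensin, catecholamines and related ligands 9 rose and 3 fell (median 0.76), where mock had 15 higher and 0 lower (median 1.85). The difference of the day changes was called lower in AGHMT for 12 and higher for 3. Adora1, an adenosine receptor, rose by 1.82, and Adrb1, the main cardiac beta-adrenergic receptor, fell from 18.1, 15.8 and 20.1 to 6.98, 6.76 and 6.78 CPM (-1.40).

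The interferon response held the steepest falls. Of 37 interferon-stimulated genes 35 fell and 0 rose, 31 by at least 2-fold (median -2.28), and without day 2 replicate 3 again 35 fell and 0 rose. Oasl1, an antiviral OAS relative, went from 35.3, 43.3 and 40.8 to 0.850, 2.06 and 0.981 CPM, 30.9 times lower (adjusted p = 1.48e-14). Rsad2, viperin, went from 95.5, 124 and 91.7 to 3.81, 8.29 and 2.83 CPM (-4.40 ± 0.30), and Ifit1, which binds viral RNA, from 406, 534 and 521 to 30.0, 38.3 and 17.9 CPM (-4.09 ± 0.32). Irf7, the transcription factor that amplifies the response, went from 236, 297 and 301 to 32.7, 28.95 and 21.7 CPM (-3.33 ± 0.19). Mx1, Oasl2 and Cmpk2 fell by 4.69, 4.10 and 4.05, and Mx2 by 2.88. None of these 8 genes overlapped between the days. Members with similar copies, such as the OAS family, are uncertain where reads could be split between them. The 2 uncalled members were Oas3, at 12.5, 15.4 and 13.2 and then 16.4, 12.7 and 10.9 CPM (-0.04, adjusted p = 0.887), and Ifi27 (-0.09). In mock cells 36 of the 37 fell and 1 rose (median -2.81), and Oas3 fell by 3.76 there.

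A pair of upstream regions of interferon genes are shown because factors of the interferon pathway bind a repeated element in such promoters. Its form TTTCNNTTTC was added to the search after the values had been seen. Ifit1 lies at chr19:34640871-34650009 on the plus strand and Rsad2 at chr12:26442746-26456452 on the minus strand, and each sequence reads towards RefSeq's start site, which can differ by some bases from the gene bounds given. Capitals mark matches to any motif searched.
Ifit1, chr19:34640639-34640888: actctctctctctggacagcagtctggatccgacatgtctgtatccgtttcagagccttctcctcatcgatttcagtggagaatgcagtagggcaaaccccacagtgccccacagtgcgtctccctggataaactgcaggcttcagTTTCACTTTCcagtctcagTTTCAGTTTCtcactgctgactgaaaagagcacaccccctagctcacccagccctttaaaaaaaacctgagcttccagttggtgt
Rsad2, chr12:26456453-26456702: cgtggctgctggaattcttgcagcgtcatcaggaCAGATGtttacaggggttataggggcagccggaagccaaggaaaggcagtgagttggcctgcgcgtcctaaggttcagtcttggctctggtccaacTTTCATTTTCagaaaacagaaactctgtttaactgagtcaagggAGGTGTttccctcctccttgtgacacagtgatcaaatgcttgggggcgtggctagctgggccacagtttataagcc
In Ifit1 the capitals are 2 TTTCNNTTTC matches, 104 to 95 and 85 to 76 bases before the start site. In Rsad2 they are CAGATG at 216 to 211, TTTCNNTTTC at 120 to 111 and AGGTGT at 76 to 71 bases before it. Of the 12014 promoters 3.1% held TTTCNNTTTC on either strand, against 3.4% of the genes that rose and 10.7% of those that fell at least 2-fold. In the interferon list 8 of 26 (30.8%) held it, and in the 3 sarcomere lists 0 of 37. Oasl1 and Oasl2, also among the 4 lowest genes with a listed promoter, had no such match.

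Inflammatory genes did not follow the interferon genes. Of 27 tested chemokine, cytokine and acute phase genes 21 rose and 2 fell, 12 at least 2-fold (median 0.92, mock -0.05). Ptgs2, the inducible cyclooxygenase, went from 3.68, 3.68 and 3.74 to 101, 95.2 and 87.2 CPM, a 25.5-fold rise (adjusted p = 1.53e-19). Lcn2, lipocalin 2, rose by 3.90, the cytokine Lif by 1.17 and the macrophage growth factor Csf1 by 1.16. The 2 that fell were Ccl5, which is also interferon-induced, from 11.4, 14.2 and 17.0 to 0.787, 1.08 and 0.684 CPM (-4.07), and Cxcl12 (-0.42). Cxcl10, a chemokine counted in the interferon list, fell by 3.96.

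Markers of other cell types rose in several cases, mostly at low levels. Of 22 macrophage genes 18 rose and 1 fell, and 16 and 0 did so without day 2 replicate 3. Their summed level was 22.3 to 27.3 CPM at day 2 and 58.3 to 83.3 CPM at day 7, against 86.3 to 89.3 and 502 to 732 CPM in mock. None of the 22 was at 0 in all AGHMT libraries. The pan-leukocyte gene Ptprc, named after its values were seen, stayed at 0.174 to 0.388 and then 0.773 to 0.850 CPM, and Csf1r went from 3.71, 3.45 and 3.16 to 15.0, 12.8 and 13.5 CPM. The 1 call lower, Fcgr1 (-1.53), was lost in 6 alternatives, among them DESeq2 (adjusted p = 0.0619) and the fit without day 2 replicate 3 (-1.39, adjusted p = 0.112). These genes moved with the chemokine list, and their part in its change was not tested. Of 11 tested epithelial and mesothelial genes 9 rose and 0 fell, summed 34.4 to 42.4 CPM at day 2 and 222 to 242 CPM at day 7 (median 1.48, mock 2.36). Against mock the day change was called higher for 5 and lower for 5 of them. Msln, mesothelin, made up much of the summed level, going from 7.53, 7.99 and 9.40 to 127, 127 and 114 CPM (3.88), with Upk1b and Upk3b up by 2.25 and 1.75, and Epcam and Cdh1 too low to test. Among neural and glial markers 9 of 15 rose and 0 fell (median 0.45, mock 0.94), led by Tubb3, a neuronal tubulin (1.48), and 7 and 1 did so without day 2 replicate 3. Their day change was called higher than that of mock for 2 and lower for 3. Of 13 endothelial genes 6 rose and 3 fell, with Flt1 up by 1.25 and Pecam1 down by 0.89 from at most 1.55 CPM. Cartilage and bone had 6 higher and 6 lower of 16, Alpl rising by 2.36 and Spp1, osteopontin, by 2.98, and Col9a1 falling by 2.38. Of 17 adipocyte genes 10 rose and 2 fell, and 10 and 1 did so without day 2 replicate 3. The fat regulator Pparg rose by 0.96, and the fall of Cidea lost its call in 7 alternatives, among them DESeq2 (adjusted p = 0.178) and the fit without day 2 replicate 3 (0.215).

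**Figure D4:**
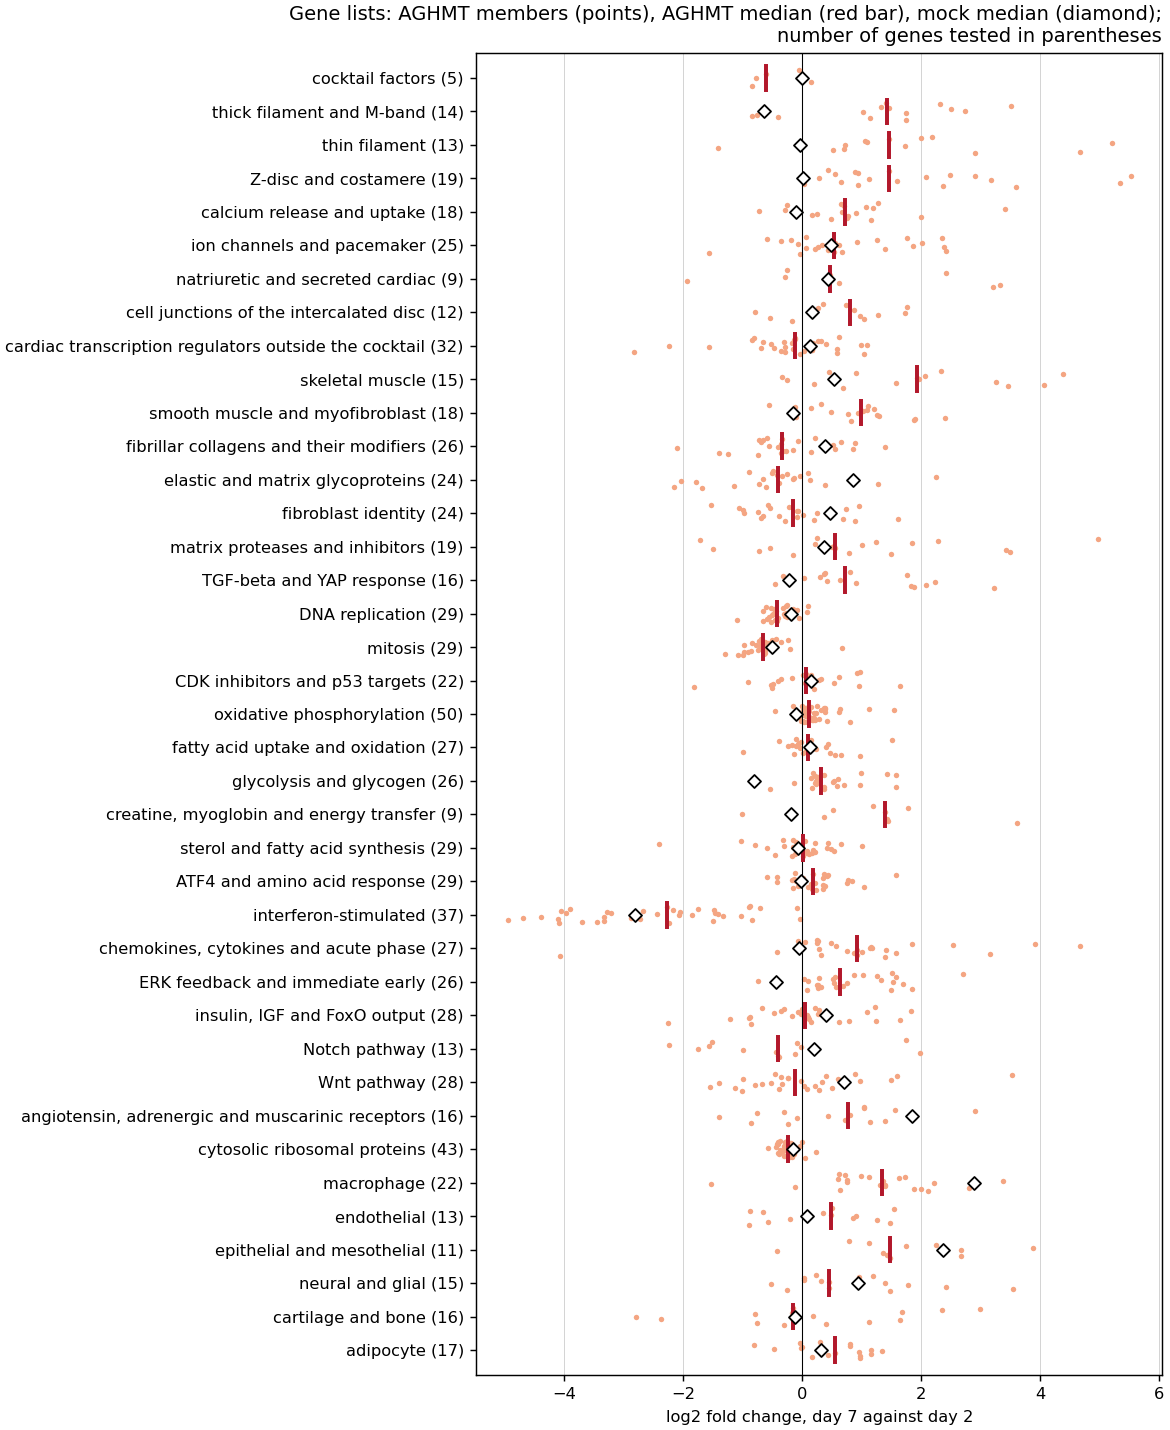
Log2 change from day 2 to day 7 for each tested member of 39 gene lists in AGHMT (points), with the AGHMT median (red bar) and the mock median (open diamond). The 3 sarcomere lists have medians of 1.43 to 1.46 with mock medians between -0.64 and 0.02, the interferon list lies near -2.28 with mock at -2.81, and the glycolysis and ERK lists have AGHMT medians above 0 and mock medians below 0.

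Beyond the lists, the 8 genes with the largest rise included Tnfsf18, a TNF family ligand, from 0.058, 0.099 and 0.083 to 8.15, 6.86 and 6.93 CPM (6.46 ± 0.31), and Chrnb3, a nicotinic receptor subunit, from 0.203, 0.099 and 0.083 to 9.50, 10.0 and 9.07 CPM (6.17 ± 0.22). They also held Prr32 and Mlph, melanophilin, at 5.69 and 5.15, beside Xirp2 and Lmod2. The day 2 values of Tnfsf18, Chrnb3 and Prr32 rest on few counts. No gene was at 0 in all 3 libraries of one day and at 5 CPM or more at the other. The 8 genes with the largest fall were Oasl1, Mx1, Rsad2, Oasl2, Ifit1, Ccl5, Cmpk2 and Cxcl10.

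The day change was then tested against that of mock cells kept for the same days. In mock 9754 genes were called between the days (55.5%), 5217 higher (29.7%) and 4537 lower (25.8%). Of the genes called in both, 1839 rose in both, 1379 fell in both, 1415 rose in AGHMT and fell in mock, and 1420 did the opposite. The difference of the day changes was called for 8941 genes (50.9%), 4361 higher in AGHMT (24.8%) and 4580 lower (26.1%). In the 3 sarcomere lists it was called higher for 9 of 14, 9 of 13 and 15 of 19 genes, and lower for 0, 2 and 1. For glycolysis it was higher for 22 of 26 and lower for 1, and for ERK feedback higher for 23 of 26 and lower for 2. The matrix lists went the other way, with 7 higher and 17 lower of 26 collagen genes and 4 higher and 18 lower of 24 glycoprotein genes. Of the macrophage genes 18 of 22 were lower. For the interferon genes the fall differed from mock in 10 of 37, 9 higher and 1 lower, with a median difference of 0.36. Without day 2 replicate 3 the counts were 12 higher and 1 lower. Oas3 was 1 of the 9 (difference 3.73, adjusted p = 1.49e-09). Ribosomal protein genes differed in 6 of 43, all lower, and without day 2 replicate 3 in 11, 9 higher and 2 lower, against 53.7% of all genes called there (26.9% higher, 26.8% lower).

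**Figure D5:**
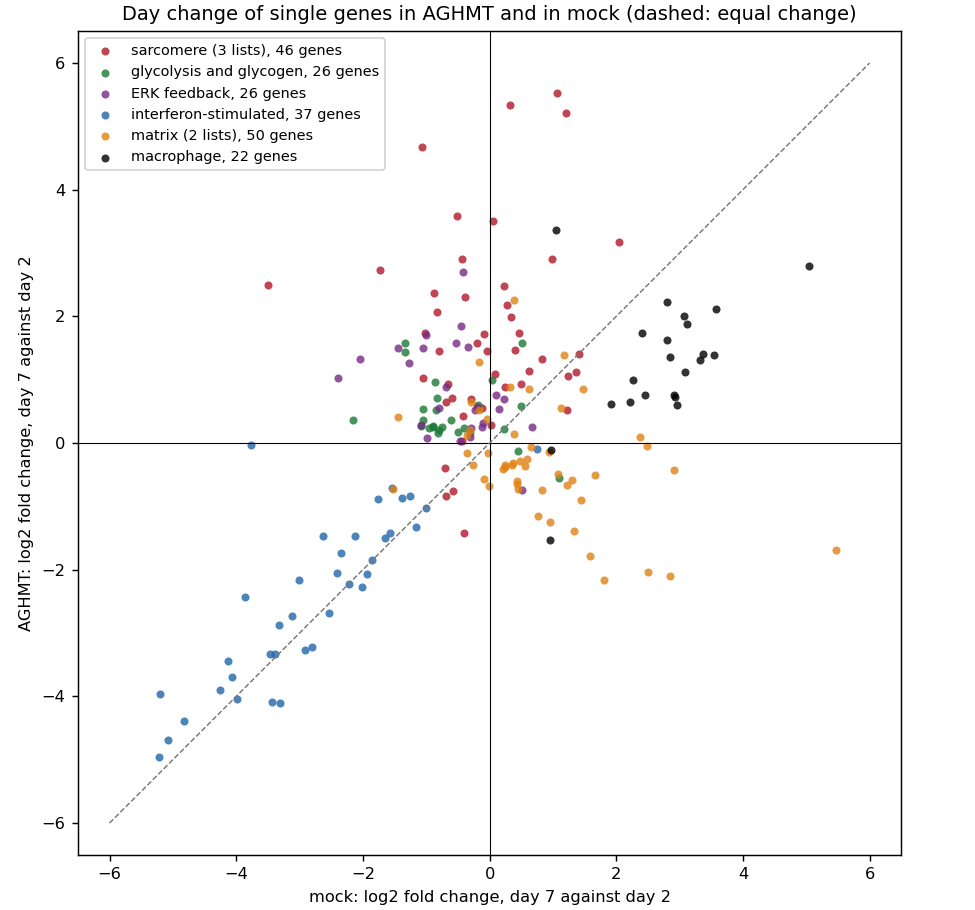
Log2 change from day 2 to day 7 in mock (horizontal) and in AGHMT (vertical) for the tested genes of selected lists, 1 point a gene. The dashed line marks equal change: interferon genes lie near it, sarcomere, glycolysis and ERK genes lie above it, and matrix and macrophage genes lie mostly below.

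Set against GHMT, the cocktail without Akt1, the day change differed for 3923 genes (22.3%), 2333 higher in AGHMT (13.3%) and 1590 lower (9.05%). This split depended on scaling, and library totals gave 1738 higher and 2531 lower. Without day 2 replicate 3 the totals were 2650 higher and 1771 lower. The list counts against GHMT are given with all libraries only. Interferon genes fell further with AGHMT, with 22 of 37 called lower and 0 higher (median difference -0.83). Ifit1 went from a mean of 820.1 to 193 CPM in GHMT and from 487 to 28.7 CPM in AGHMT (difference -2.0 ± 0.40, adjusted p = 0.00058). The smooth muscle list was higher for 16 of 18 genes and lower for 0 (median 0.69). In it Myh11 differed by 1.56 and Tagln by 1.12. Macrophage genes were called higher for 7 of 22 and lower for 0. The collagen list was higher for 13 of 26 genes and lower for 2 (57.7% called). The matrix glycoprotein list was higher for 12 of 24 and lower for 2 (58.3%). Col3a1 fell further in GHMT, from 1119 to 244 CPM (difference 0.80). Ryr1 went from 1.12 to 1.71 CPM in GHMT against the 20.7-fold rise in AGHMT (difference 3.75 ± 0.24, adjusted p = 2.72e-11). In the opposite direction, Nppa rose by more in GHMT, from 24.5 to 461 CPM (difference -1.03), as did Tnni3 (difference -0.76). Of the sarcomere lists 5 of 14, 5 of 13 and 10 of 19 genes were called higher, and 2, 3 and 1 lower. Acta1 and Mybpc3 rose by more in AGHMT (differences 1.66 and 0.42). Myh6, Actc1 and Mybphl rose by less (differences -0.45, -0.38 and -0.83). Actn2 went from 11.5 to 119 CPM in GHMT, a difference of 0.22 (adjusted p = 0.0402), and Lmod2 from 0.442 to 9.96 CPM, a difference that was not called (0.73 ± 0.25, adjusted p = 0.0756).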

How the data were processed

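Total RNA of 24 libraries, 3 in each of 8 groups, was read from 1 deposited table of raw counts per gene. The authors' counts came from Trim Galore 0.4.1, HISAT2 2.0.1 and featureCounts 1.4.6 on GRCm38 (mm10), with DESeq2 1.6.3 also named, per the submitters' processing notes. For annotation release, strand setting and read filters nothing is stated in those notes, so overlapping and antisense genes cannot be separated. The labels gave each library's group and number.

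All 24 libraries were fitted together with edgeR 4.0.16 (R 4.3.3, quasi-likelihood F test, TMM scaling, filterByExpr), leaving 17576 of 47967 genes and 16 residual degrees of freedom. Day 7 was compared with day 2 in AGHMT, and this change with that in mock and in GHMT. SE is the log2 change over the root of F. Calls used a Benjamini-Hochberg adjusted p under 0.05, and a second rule added a 2-fold change. Alternatives were DESeq2 1.42.0, its size factors, library totals, other filters, the compared libraries alone, a replicate block and leaving out each library. The method was tested on simulated data. Coordinates and merged exon lengths came from GENCODE on GRCm38, and promoters from RefSeq.

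Named genes were the factors, the 8 highest and 8 lowest changes with a mean of 5 CPM or more and replicates that did not overlap, the 4 highest and 4 lowest differences from mock and from GHMT, up to 4 members of each list by smallest p and up to 2 against its majority, and isoform pairs. The members and the 39 lists were chosen with earlier results of these data known. A few genes that meet the naming rule are not reported here.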

Additional observations from a re-analysis of the deposited data

Results flagged for a closer look

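Some genes changed between the days by very different amounts in AGHMT and in another group, by edgeR's test of the difference of the changes. Values below are group mean CPM at day 2 and day 7, and differences are log2. None was examined for a cause.

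Against mock the highest differences included that of Cbln4, a secreted synaptic protein, at 7.93, with 0.53 and 15.1 CPM in AGHMT. Gtsf1 differed by 7.82, with 3.99 and 47.9 CPM, and Trim54, a muscle ubiquitin ligase, by 7.28, with 0.883 and 16.0 CPM. These 3 were at 0 in every day 7 mock library, so their fitted differences depend on the prior count and are no bound. The lowest were Reg1 (-7.46), Mstn, the muscle growth inhibitor myostatin (-7.2), Eln (-7.17) and Egfl6 (-7.13). Reg1 was not called within AGHMT (adjusted p = 0.279) and went from 0.134 to 16.0 CPM in mock. Mstn fell from 33.5 to 13.6 CPM in AGHMT and went from 0.0468 to 3.08 CPM in mock. Egfl6 fell from 1.198 to 0.165 CPM in AGHMT while mock went from 13.4 to 268 CPM.

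Against GHMT the highest were Prr32 (4.45), Ryr1 (3.75), Col19a1, a minor collagen (3.33), and Ncan, neurocan (3.3). Prr32 had 0.243 and 0.578 CPM in GHMT and 0.21 and 10.9 CPM in AGHMT. Col19a1 went from 14.1 to 5.17 CPM in GHMT and from 2.36 to 8.61 CPM in AGHMT. Ncan went from 0.537 to 11.6 CPM in AGHMT. The lowest were Grin2c (-2.41), Cyp11a1 (-2.37), Aldh3b2 (-2.35) and Cldn23 (-2.16). Grin2c, a glutamate receptor subunit, fell from 23.5 to 3.01 CPM in AGHMT and had 6.69 and 4.55 CPM in GHMT. Cyp11a1, which starts steroid hormone synthesis, went from 0.714 to 3.08 CPM in AGHMT and from 0.508 to 11.2 CPM in GHMT. Cldn23 fell from 7.20 to 0.479 CPM in AGHMT and had only 0.464 and 0.136 CPM in GHMT, so its difference rests on low GHMT counts.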

How the results depend on the processing

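No named gene reversed direction under any alternative run. Of the AGHMT counts, genes at least 2-fold higher dropped from 1647 to 1087 with a filter at 1 CPM, which tests fewer genes. The count of genes lower than in GHMT rose from 1590 to 2531 with library totals, and mock genes at least 2-fold lower dropped from 955 to 515 with the filter at 1 CPM. Leaving out 1 library at a time gave 4809 to 5554 genes higher and 3979 to 4534 lower in AGHMT. A replicate block gave 5189 higher and 4352 lower. Same-numbered AGHMT libraries had deviation correlations of -0.0101, 0.00526 and -0.0718, which cannot show whether they share a culture or a batch. With the compared libraries alone, 3774 genes were higher and 3763 lower, and with DESeq2 5079 and 4051. The call for Cidea was lost in 7 alternatives and that for Fcgr1 in 6, and Akt1 was called lower with library totals (-0.13). The differences from mock of Cbln4 and Trim54 lost their call without mock day 2 replicate 1 (4.81 and 4.16), and that of Cldn23 from GHMT without GHMT day 7 replicate 1 (-1.97). The cause was not tested.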
